A study of Mus musculus with 9 samples.

Results

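The 10 genes described here mark amacrine cells of the mouse retina: Gad1, Gad2, Slc32a1, Slc6a9, Chat, Slc18a3, Th, Tfap2a, Pax6 and Calb2. They were chosen by name, as genes for the transmitters and the identity of this cell class, from the 22337 genes of the table, and all 10 passed the filter on low counts in every comparison. Poly(A) RNA of whole retina was sequenced at postnatal day 28 in 9 libraries, 3 per group. WT was untreated C57 BL/6J retina. NS and MSC-EVs were both rd10 retina, injected in both eyes at postnatal days 14 and 21 with 1 µL of either normal saline (NS) or extracellular vesicles of human umbilical cord mesenchymal stem cells (MSC-EVs). The labels place the injection in the vitreous in 1 field and call it intravenous in another. The rd10 mouse carries a mutation of Pde6b, a phosphodiesterase subunit of rods, and loses its rods in the first postnatal weeks. WT eyes were not injected, so genotype and injection cannot be told apart in a comparison with WT.

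Amacrine cells are interneurons of the inner retina that shape the signal passing from bipolar to ganglion cells. Most of them are inhibitory and release either GABA or glycine, starburst amacrine cells release acetylcholine as well as GABA, and a sparse population releases dopamine. Several of the 10 genes are also used by neighbouring cells: horizontal cells make GABA, and Pax6 is kept on in horizontal and ganglion cells and in Müller glia. Amacrine cells were not sorted, and in whole retina a change in the number of cells of a type and a change of RNA per cell cannot be told apart.

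Each library held between 19491721 and 62532357 estimated counts, the third MSC-EVs library being the deepest. Summed counts of 4 Y-linked genes reached 183.1 and 188.8 CPM (counts scaled to the size of the library) in MSC-EVs replicates 1 and 2 and 0.2366 to 0.5072 CPM in the other 7 libraries, and the labels do not give the sex of the animals. Rod markers identified the tissue as retina and separated WT from rd10, but not the rd10 groups from each other. The 10 rod genes summed to between 77020 and 82610 CPM in WT, 15490 and 22280 CPM in NS-treated rd10 and 16090 and 22490 CPM in MSC-EVs-treated rd10. Nothing in the labels says that the libraries came from separate animals, so the p-values measure the spread between libraries, which may in part be technical.

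In NS-treated rd10 retina 7 of the 10 genes rose against WT and none fell: Pax6, Tfap2a, Slc32a1, Gad2, Slc6a9, Calb2 and Gad1. The rises were small, from 1.11-fold for Gad1 and Calb2 to 1.47-fold for Pax6. Between MSC-EVs-treated and NS-treated rd10 none of the 10 passed the test. Against WT, MSC-EVs-treated rd10 retina held more Gad2, Pax6 and Slc32a1, and the other 7 did not pass. A gene was called when the quasi-likelihood test of edgeR gave a Benjamini-Hochberg adjusted p under 0.05 over all genes tested. A difference is given as a log2 fold change ± its standard error, with 3 libraries per group throughout.

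These counts stand beside a retina in which most genes moved. Of 14644 genes tested between NS-treated rd10 and WT, 61.3% were called, 31.2% higher and 30.1% lower, and 12.7% were called with an absolute log2 change of 1 or more, which none of the 10 genes reached. The groups did not overlap, meaning that every library of one lay above every library of the other, for 66.9% of all genes and for 7 of the 10, each of them higher in NS-treated rd10. The median log2 fold change of the 10 genes was 0.23, against 0.01 for all genes tested. The plot of CPM by library shows how close most of the groups lay.

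**Figure D1:**
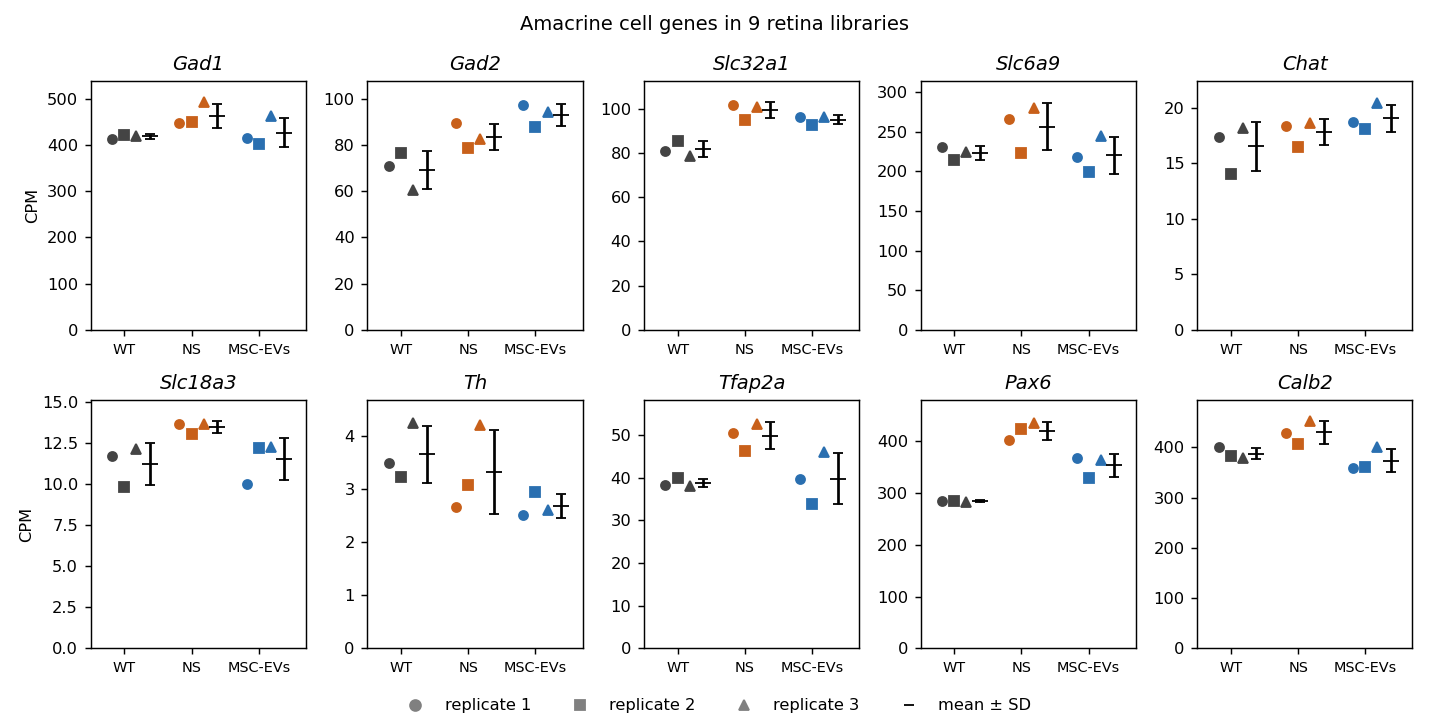
CPM of each of the 10 genes (y axis, from 0, a scale of its own for each gene) in the 3 groups. Points are libraries, with the marker giving the replicate number, and bars are the mean ± SD (n = 3). Pax6 separated all 3 groups, with 282 to 285 CPM in WT, 401 to 435 in NS-treated and 327 to 368 in MSC-EVs-treated retina, whereas Chat and Th overlapped between NS-treated rd10 and WT.

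GABA is made from glutamate by glutamate decarboxylase, which mammals encode in Gad1 (GAD67) and Gad2 (GAD65). Gad1 (ENSMUSG00000070880, chr2:70553072-70602014, plus strand, GRCm38) measured 413, 422 and 420 CPM in WT, 447, 450 and 493 CPM in NS-treated rd10, and 415, 401 and 463 CPM in MSC-EVs-treated rd10. All NS-treated libraries lay above WT, and the MSC-EVs-treated libraries spanned both groups. Gad1 rose by 0.14 ± 0.06 in NS-treated rd10 against WT (95% interval 0.02 to 0.26, adjusted p = 0.0381). The call was lost without WT replicate 1, 2 or 3 or NS replicate 3, with adjusted p from 0.0837 to 0.141. Its difference was -0.11 ± 0.07 between MSC-EVs-treated and NS-treated rd10 (adjusted p = 0.434) and 0.04 ± 0.06 between MSC-EVs-treated rd10 and WT (adjusted p = 0.64).

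Gad2 (ENSMUSG00000026787, chr2:22622205-22693874, plus strand) measured 70.8, 76.6 and 60.4 CPM in WT, 89.3, 78.4 and 82.5 CPM in NS-treated rd10, and 97.1, 87.7 and 94.1 CPM in MSC-EVs-treated rd10. The group means ran upward from WT (69.3 ± 8.18 CPM, SD) through NS-treated (83.4 ± 5.47 CPM) to MSC-EVs-treated retina (93 ± 4.8 CPM), and the treated groups overlapped each other. Gad2 rose by 0.27 ± 0.09 in NS-treated rd10 (adjusted p = 0.0197) and by 0.43 ± 0.09 in MSC-EVs-treated rd10 against WT (1.35-fold, adjusted p = 0.00201). The first of these calls was lost without WT replicate 3 (adjusted p = 0.0674) or NS replicate 1 (adjusted p = 0.0657), and the second held without any single library. Between the 2 treated groups the difference was 0.16 ± 0.07 (95% interval -0.002287 to 0.33, adjusted p = 0.253). Gad2 and Chat were the 2 of the 10 genes with a positive difference in that comparison.

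The 2 decarboxylase genes stood far apart in level. Per length, in FPKM, the authors' values scaled for gene length and library depth, Gad1 exceeded Gad2 by 9.64 to 12.2 times in the WT libraries, 8.81 to 10.4 times in the NS-treated and 7.58 to 8.73 times in the MSC-EVs-treated libraries. The MSC-EVs-treated libraries held the lowest ratios, but their highest (8.73) lay only just below the lowest NS-treated ratio (8.81). This ratio was not tested.

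Slc32a1 encodes VGAT, the carrier that loads GABA and glycine into synaptic vesicles and so serves both inhibitory classes. It lies at chr2:158610767-158615748 on the plus strand (ENSMUSG00000037771). Its level was 81.1, 85.6 and 78.5 CPM in WT, 102, 95.1 and 101 CPM in NS-treated rd10, and 96.1, 92.8 and 96.5 CPM in MSC-EVs-treated rd10. Every rd10 library lay above every WT library. Slc32a1 rose by 0.28 ± 0.06 in NS-treated rd10 (1.21-fold, adjusted p = 0.00132) and by 0.23 ± 0.06 in MSC-EVs-treated rd10 (1.17-fold, adjusted p = 0.00679), and both calls held without any single library. The difference between the treated groups was -0.06 ± 0.06 (95% interval -0.19 to 0.08, adjusted p = 0.654). An antisense transcript, Gm14205, shares 24.9% of the exonic bases of Slc32a1, and the library kit as described did not mark strand, so reads of the 2 cannot be told apart.

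Slc6a9 encodes GlyT1, the glycine transporter of glycinergic amacrine cells. Slc6a9 (ENSMUSG00000028542, chr4:117834506-117875198, plus strand) measured 231, 214 and 224 CPM in WT, 267, 223 and 280 CPM in NS-treated rd10, and 218, 199 and 245 CPM in MSC-EVs-treated rd10. NS replicate 2 fell among the WT libraries, so Slc6a9 was the 1 called gene of the 10 whose groups overlapped. It rose by 0.20 ± 0.08 in NS-treated rd10 (adjusted p = 0.0411), a call that was lost without WT replicate 1, 2 or 3, NS replicate 1 or NS replicate 3 (adjusted p from 0.0557 to 0.164). Its difference was -0.21 ± 0.10 between MSC-EVs-treated and NS-treated rd10 (adjusted p = 0.295) and -0.01 ± 0.07 between MSC-EVs-treated rd10 and WT (adjusted p = 0.915). Ccdc24, a protein-coding gene on the opposite strand, shares 27.8% of the exonic bases of Slc6a9, and Gm17114 shares 9.94%, which leaves the level of Slc6a9 uncertain.

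Acetylcholine is made by choline acetyltransferase (Chat) and packed into vesicles by VAChT (Slc18a3), and both mark starburst amacrine cells. The 2 genes form a nested pair on the minus strand. Chat (ENSMUSG00000021919) spans chr14:32408203-32465989, and the single exon of Slc18a3 (ENSMUSG00000100241) spans chr14:32462438-32464850, starting 1.139 kb into Chat. It lies in an intron of all 4 annotated Chat transcripts, of 8, that span it, so the exons do not share bases.

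Chat measured 17.4, 14.0 and 18.2 CPM in WT, 18.4, 16.5 and 18.7 CPM in NS-treated rd10, and 18.7, 18.1 and 20.4 CPM in MSC-EVs-treated rd10. The groups overlapped in all 3 comparisons, with WT replicate 2 lowest of the 9 libraries and MSC-EVs replicate 3 highest. The differences were 0.11 ± 0.11 between NS-treated rd10 and WT (adjusted p = 0.39), 0.11 ± 0.10 between MSC-EVs-treated and NS-treated rd10 (adjusted p = 0.595) and 0.22 ± 0.11 between MSC-EVs-treated rd10 and WT (95% interval -0.03 to 0.46, adjusted p = 0.12).

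Slc18a3 measured 11.7, 9.80 and 12.2 CPM in WT, 13.7, 13 and 13.7 CPM in NS-treated rd10, and 10, 12.2 and 12.3 CPM in MSC-EVs-treated rd10. All NS-treated libraries lay above all libraries of both other groups. The difference from WT was 0.26 ± 0.11 in NS-treated rd10, just outside the threshold (95% interval 0.03 to 0.50, adjusted p = 0.051), and it passed without WT replicate 3 (adjusted p = 0.0458). Between MSC-EVs-treated and NS-treated rd10 it was -0.22 ± 0.12 (adjusted p = 0.337), and between MSC-EVs-treated rd10 and WT 0.05 ± 0.13 (adjusted p = 0.775). The ratio of Slc18a3 FPKM to Chat FPKM, both per length, was 0.714 to 0.829 in WT, 0.843 to 0.939 in NS-treated and 0.634 to 0.80 in MSC-EVs-treated libraries, so the NS-treated libraries lay above both other groups. No test was run on the ratio.

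**Figure D2:**
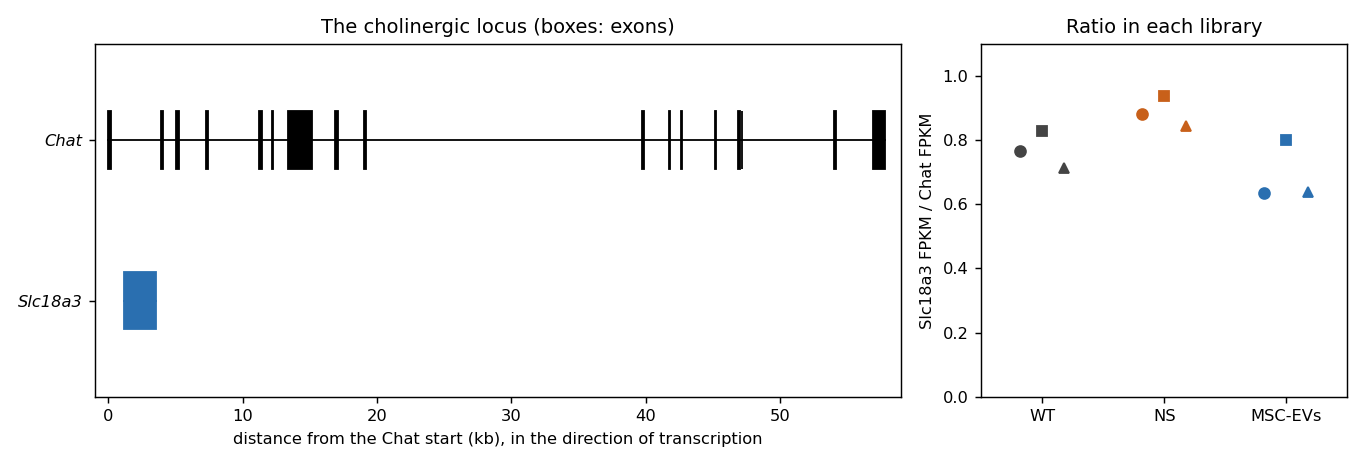
Left, exons (boxes) of Chat and Slc18a3 by distance from the Chat start in kb along the direction of transcription, both genes being on the same strand. Right, the ratio of Slc18a3 FPKM to Chat FPKM in each library, with circle, square and triangle for replicates 1, 2 and 3: the NS-treated libraries (0.843 to 0.939) lie above WT (0.714 to 0.829) and MSC-EVs-treated libraries (0.634 to 0.80).

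Th encodes tyrosine hydroxylase, the rate-limiting enzyme of dopamine synthesis and the standard marker of dopaminergic amacrine cells, which are few. It had the lowest level of the 10 genes, resting on 60 to 168 counts per library. Th (ENSMUSG00000000214, chr7:142892752-142931128, minus strand) measured 3.50, 3.22 and 4.25 CPM in WT, 2.67, 3.09 and 4.21 CPM in NS-treated rd10, and 2.51, 2.95 and 2.61 CPM in MSC-EVs-treated rd10. The MSC-EVs-treated libraries lay below all WT libraries, and NS-treated libraries overlapped with both groups. The difference was -0.15 ± 0.21 between NS-treated rd10 and WT (95% interval -0.61 to 0.31, adjusted p = 0.563), -0.30 ± 0.23 between the treated groups (adjusted p = 0.501) and -0.44 ± 0.20 between MSC-EVs-treated rd10 and WT (95% interval -0.88 to 0.0009499, adjusted p = 0.0826). At this depth the intervals of Th were the widest of the 10 genes.

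Tfap2a encodes AP-2 alpha, a transcription factor of postmitotic amacrine cells. Tfap2a (ENSMUSG00000021359, chr13:40715302-40738376, minus strand) measured 38.4, 39.8 and 37.9 CPM in WT, 50.4, 46.3 and 52.6 CPM in NS-treated rd10, and 39.7, 33.7 and 45.9 CPM in MSC-EVs-treated rd10. NS-treated libraries lay above both other groups, and the MSC-EVs-treated libraries spread to both sides of WT. Tfap2a rose by 0.36 ± 0.07 in NS-treated rd10 (1.28-fold, adjusted p = 0.000606), and the call held without any single library. The difference between the treated groups was -0.31 ± 0.11, which did not pass (adjusted p = 0.168), and that between MSC-EVs-treated rd10 and WT was 0.05 ± 0.10 (adjusted p = 0.697). Antisense transcripts share 5.4%, 7.75% and 1.49% of its exonic bases.

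Pax6, the paired-box factor that keeps retinal progenitors multipotent and stays on in amacrine cells, had the largest change of the 10 genes in NS-treated rd10 against WT. Pax6 (ENSMUSG00000027168, chr2:105668900-105697364, plus strand) measured 285, 285 and 282 CPM in WT, 401, 422 and 435 CPM in NS-treated rd10, and 368, 327 and 364 CPM in MSC-EVs-treated rd10. The 3 groups did not overlap, with WT lowest, MSC-EVs-treated between and NS-treated highest. Pax6 rose by 0.56 ± 0.05 in NS-treated rd10 (1.47-fold, 95% interval 1.36 to 1.59, adjusted p = 2.1e-06) and by 0.32 ± 0.06 in MSC-EVs-treated rd10 (1.25-fold, adjusted p = 0.00089). Its difference between the treated groups was -0.24 ± 0.07 (95% interval -0.39 to -0.09) with an adjusted p of 0.0974. That comparison passed with the Wald test of DESeq2 (adjusted p = 0.0256) and with all 9 libraries in 1 edgeR fit (adjusted p = 0.0279), and in none of the other settings tried. In NS-treated rd10 against WT, 81.8% of all genes tested had a lower log2 fold change than Pax6.

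Pax6 and Th are the 2 genes, of those searched, whose sequence just before a RefSeq start holds the palindrome TGACGTCA, the cAMP response element. Capitals mark this element and, in Pax6, a match to GCCNNNGGC, the palindromic core of AP-2 sites. The sequences run 5′ to 3′ along each gene up to the RefSeq start (GRCm38.p6), and are shown so that the windows can be compared. That of Th is cut where a protein-coding exon of the GENCODE annotation enters the window. This exon is not the first of Th, which in GENCODE reaches upstream to 142931128.
Pax6 (chr2:105668646-105668895, plus strand): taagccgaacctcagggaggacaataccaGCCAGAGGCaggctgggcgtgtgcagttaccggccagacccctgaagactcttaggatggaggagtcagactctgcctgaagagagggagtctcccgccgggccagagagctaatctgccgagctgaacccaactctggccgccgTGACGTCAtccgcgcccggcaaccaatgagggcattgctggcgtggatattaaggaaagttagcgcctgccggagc
Th (chr7:142900015-142900245, minus strand): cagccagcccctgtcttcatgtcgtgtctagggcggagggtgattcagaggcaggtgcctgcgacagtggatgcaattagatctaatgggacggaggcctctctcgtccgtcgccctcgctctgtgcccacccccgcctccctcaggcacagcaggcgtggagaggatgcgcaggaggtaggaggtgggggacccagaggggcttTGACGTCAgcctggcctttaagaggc
The element begins 76 bases before this RefSeq start of Pax6 and 45 bases before that of Th. Both motifs were searched on both strands in the 250 bases before each start, in 13 windows that belong to all of the 10 genes but Calb2. TGACGTCA was found in 2 of the 13 windows and in 1.55% of all 32851 promoter windows of the same length, and GCCNNNGGC in 3 of the 13, those of Gad2, Pax6 and Slc18a3, and in 13.7% of all. A further Pax6 window (chr2:105682213-105682462), which overlaps a Pax6 exon, held neither motif. The 2 motifs did not overlap each other in any of the 13 windows. A match describes letters only, and binding was not measured here. Any link between a match and the fold changes was not tested.

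Calb2 encodes calretinin, a calcium-binding protein of several amacrine and ganglion cell types. Calb2 (ENSMUSG00000003657, chr8:110137502-110168210, minus strand) measured 400, 382 and 379 CPM in WT, 428, 407 and 453 CPM in NS-treated rd10, and 358, 362 and 400 CPM in MSC-EVs-treated rd10. All NS-treated libraries exceeded every library of both other groups. Calb2 rose by 0.15 ± 0.06 in NS-treated rd10 (adjusted p = 0.0398), and the call was lost without WT replicate 2 or 3 or NS replicate 1 or 3 (adjusted p from 0.0648 to 0.134). Its difference was -0.20 ± 0.07 between the treated groups (adjusted p = 0.164) and -0.05 ± 0.06 between MSC-EVs-treated rd10 and WT (adjusted p = 0.525).

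Between MSC-EVs-treated and NS-treated rd10, 1.16% of 14765 genes tested were called, 0.914% higher and 0.251% lower, and 0.061% with an absolute log2 change of 1 or more. None of the 10 amacrine genes was called by edgeR. Of them 3, Pax6, Calb2 and Tfap2a, had an unadjusted p under 0.05, beside 2980 of the 14765 genes tested. Of the 10, 8 had a negative and 2 a positive log2 fold change, with a median of -0.20 against -0.0016 over all genes tested. Marker lists of other cell types differed in this comparison. Medians of like size were -0.28 for cone, -0.20 for ganglion cell and -0.17 for Müller glia genes, the 8 Müller glia genes all being negative. Smaller medians were -0.04 for bipolar, 0.03 for horizontal, 0.01 for rod and 0.04 for microglia and macrophage genes. Pigment epithelium genes had a median of -0.45 and lens genes one of 0.35. Libraries did not overlap between the groups for 26.3% of all genes and for 4 of the 10, Slc18a3, Tfap2a, Pax6 and Calb2, each lower in MSC-EVs-treated retina. With the summed Y-linked level of each library as a covariate, the median of the 10 was -0.07. Gad1 then turned to 0.01, the other 9 keeping their sign. Only MSC-EVs replicates 1 and 2 carried Y-linked expression. The group difference in that fit therefore rests on MSC-EVs replicate 3 against the NS-treated libraries. This comparison shares the NS-treated libraries with the comparison of NS-treated rd10 and WT, and the WT libraries stand in both comparisons against WT, so the 3 comparisons are not independent.

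Between MSC-EVs-treated rd10 and WT, 55.5% of 14623 genes tested were called, 28.3% higher and 27.2% lower, and 12.2% with an absolute log2 change of 1 or more. Of the 10 genes 3 rose, none fell, and none reached that limit. The libraries did not overlap for 65.2% of all genes and for 4 of the 10, Gad2, Slc32a1 and Pax6 being higher and Th lower. The median log2 fold change of the 10 genes was 0.05 and that of all genes tested -0.0041. Y-linked expression differed here too, with 183.1 and 188.8 CPM in MSC-EVs replicates 1 and 2 and 0.3141 to 0.5072 CPM in WT. The Y-linked covariate was not fitted in this comparison. The plot of fold changes sets the 3 comparisons side by side.

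**Figure D3:**
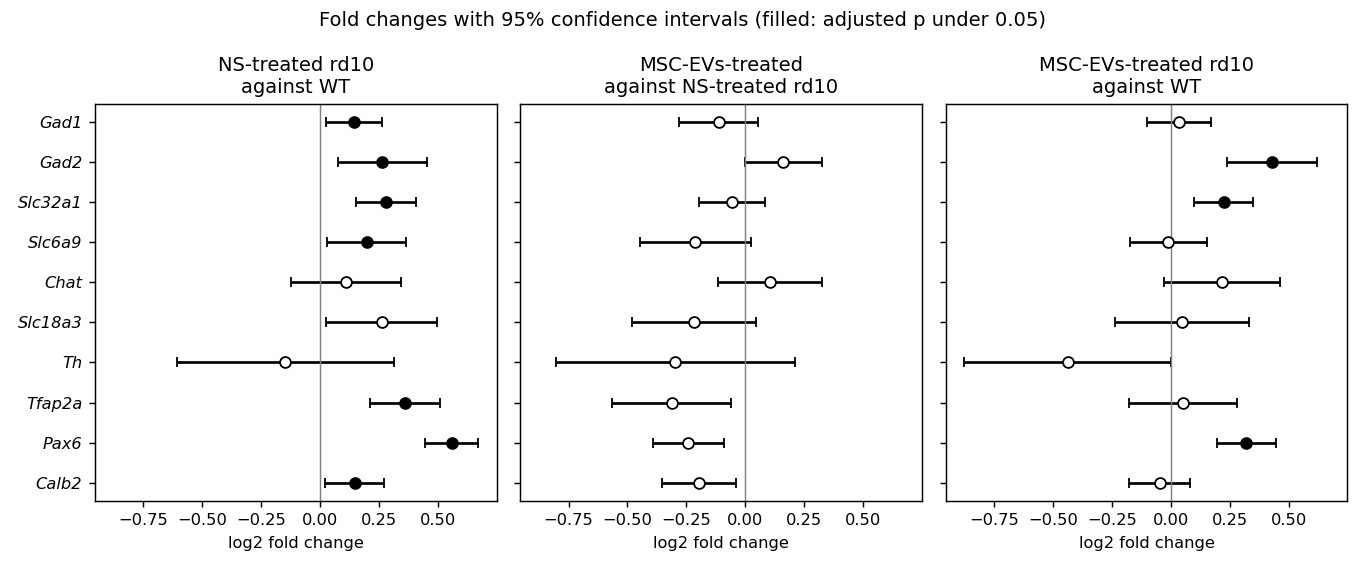
Log2 fold change (x axis) of the 10 genes in the 3 comparisons, with 95% confidence intervals from edgeR; filled points had an adjusted p under 0.05. In NS-treated rd10 against WT 7 points are filled, the highest being Pax6 at 0.56, none is filled between the treated groups, and Gad2, Slc32a1 and Pax6 are filled in MSC-EVs-treated rd10 against WT.

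The rises against WT depended on the reference against which a level is read. CPM were scaled by TMM factors, 0.92 to 0.9322 in WT and 1.029 to 1.052 in rd10 libraries, and so are not plain shares of the library. Rod markers stood at a far lower summed level in rd10 than in WT. When the library factors were set so that 22 markers of bipolar, horizontal and ganglion cells kept the same summed level, the log2 fold changes of all genes moved by -0.18 in NS-treated rd10 against WT and by -0.19 in MSC-EVs-treated rd10 against WT. On that scale Pax6 alone of the 10 rose in NS-treated rd10 (0.38, adjusted p = 0.00153), and Gad1, Calb2 and Chat turned to -0.03, -0.03 and -0.07. In MSC-EVs-treated rd10 against WT, Gad2 rose on that scale (0.25, adjusted p = 0.0424), whereas Calb2 (-0.23, adjusted p = 0.0335) and Th (-0.63, adjusted p = 0.0406) fell. Over all genes, this scale moved the calls of NS-treated rd10 against WT from 4562 higher and 4410 lower to 2704 higher and 5606 lower, and those of MSC-EVs-treated rd10 against WT from 4137 higher and 3980 lower to 2360 higher and 5569 lower. With the FPKM of the authors, on the log2(FPKM + 1) scale in limma, the calls of NS-treated rd10 against WT moved to 6165 higher and 2403 lower, and 8 of the 10 genes rose, Slc18a3 (0.37, adjusted p = 0.00561) being the added one. On the same scale the calls of MSC-EVs-treated rd10 against WT moved to 5586 higher and 2214 lower, and 4 of the 10 rose, Gad1 (0.20, adjusted p = 0.0168) being the added one. Of the 10, Pax6 was the 1 gene that rose in NS-treated rd10 on all 3 scales, and Gad2 the 1 that rose in MSC-EVs-treated rd10 on all 3.

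**Figure D4:**
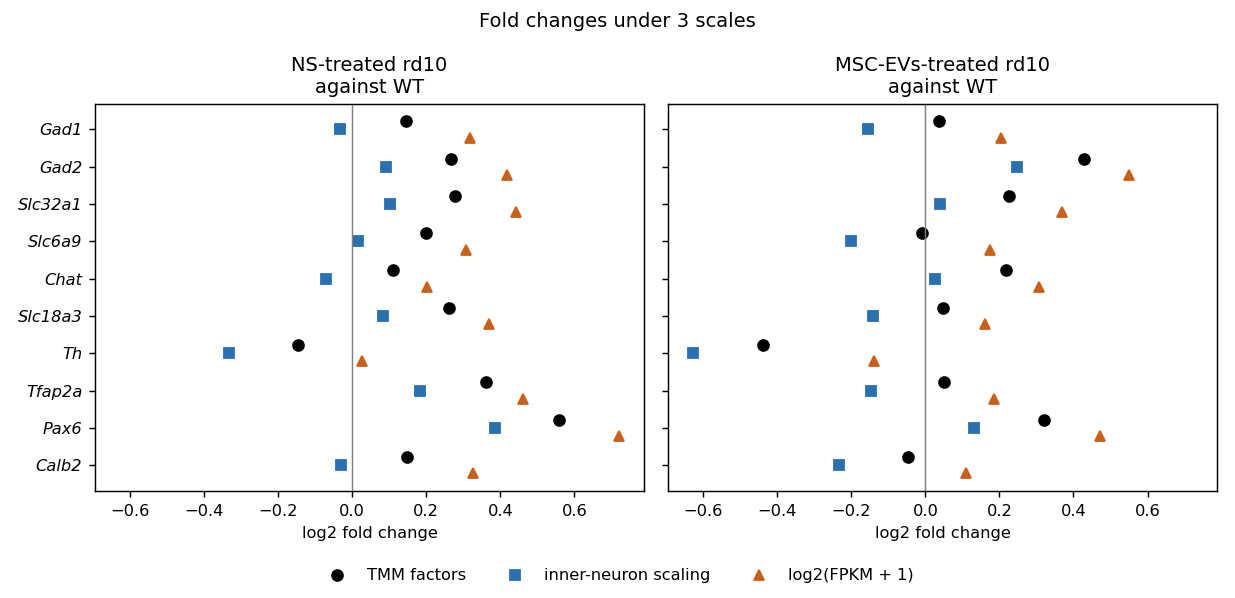
Log2 fold change (x axis) of the 10 genes against WT in NS-treated (left) and MSC-EVs-treated rd10 (right) under TMM factors (circles), factors that hold inner-neuron markers level (squares) and log2(FPKM + 1) in limma (triangles). All 10 genes lie lowest with the squares and highest with the triangles, Gad1 for example lying at 0.14, -0.03 and 0.32 in NS-treated rd10.

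Levels can be compared between genes only per length. In WT the mean FPKM ran from Calb2 (251) through Gad1 (118), Pax6 (103), Slc6a9 (84.6), Slc32a1 (27), Tfap2a (12), Gad2 (11.2), Chat (5.64) and Slc18a3 (4.30) to Th (1.85). Of these neighbours, Tfap2a and Gad2 overlapped between libraries (11.5 to 12.32 against 9.67 to 12.42 FPKM), as did Chat and Slc18a3 (4.57 to 6.50 against 3.79 to 4.64 FPKM). In NS-treated rd10 Pax6 (171 FPKM) stood above Gad1 (147 FPKM), and their libraries did not overlap. In MSC-EVs-treated rd10 the 2 overlapped (132.61 to 150.17 against 128.43 to 147.10 FPKM). The ratio of Pax6 FPKM to Gad1 FPKM was 0.861 to 0.896 in WT, 1.13 to 1.19 in NS-treated and 1.01 to 1.13 in MSC-EVs-treated libraries.

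A list of 34 other genes tied to amacrine cells or their transmitters was read beside the 10. Among them were further transporters, enzymes and transcription factors, and not all are particular to amacrine cells. Slc6a3, the dopamine transporter, with at most 10 counts in a library, and the progenitor factors Ptf1a (at most 4) and Foxn4 (at most 2) did not pass the filter, which left 31. In NS-treated rd10 against WT 20 of the 31 rose, none fell, and 3 passed the limit of 1 on the log2 scale, and their median was 0.38. Over all genes tested in that comparison 61.3% were called and 31.2% were called higher. Against WT, 18 of them rose in MSC-EVs-treated rd10 and 1 fell, Gjd2 (connexin 36, -0.17, adjusted p = 0.027), the median being 0.33, beside 55.5% of all genes called and 28.3% called higher. With inner-neuron markers held level, 10 of the 31 rose and 1 fell in NS-treated rd10, and 6 rose and 1 fell in MSC-EVs-treated rd10. On that scale 2704 of all 14644 genes tested were called higher and 5606 lower in NS-treated rd10. In MSC-EVs-treated rd10, 2360 of 14623 were called higher and 5569 lower.

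The 8 largest of these rises in NS-treated rd10 were led by 2 genes of low level. Gch1, which makes the cofactor of tyrosine hydroxylase, measured 1.53, 1.16 and 1.5 CPM in WT, 4.7, 4.51 and 5.63 CPM in NS-treated rd10, and 4.14, 8.84 and 1.76 CPM in MSC-EVs-treated rd10. It rose by 1.82 ± 0.21 in NS-treated rd10 (3.53-fold, adjusted p = 1.08e-05), while Th did not pass the test, and the MSC-EVs-treated libraries spread widely. Slc6a13, the GABA transporter GAT2, measured 1.93, 2.42 and 2.05 CPM in WT, 8.99, 5.88 and 3.98 CPM in NS-treated rd10, and 1.8, 4.4 and 2.5 CPM in MSC-EVs-treated rd10. It rose by 1.57 ± 0.29 in NS-treated rd10 (adjusted p = 0.00072). Which cells gave the reads of Gch1 and Slc6a13 was not measured. Microglia and macrophage genes (median 2.99) and pigment epithelium genes (median 1.33) were also higher in this comparison, and their part was not tested.

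Megf10, a receptor for the spacing of starburst cells that Müller glia also express, measured 29.3, 33.9 and 33.1 CPM in WT, 72.8, 73.0 and 78.4 CPM in NS-treated rd10, and 61.9, 55.5 and 52.1 CPM in MSC-EVs-treated rd10. The 3 groups did not overlap. Megf10 rose by 1.22 ± 0.07 in NS-treated rd10 (2.32-fold, adjusted p = 3.66e-08). It was also the 1 gene of the list called between the treated groups, falling by 0.40 ± 0.08 in MSC-EVs-treated retina (adjusted p = 0.049). That call was lost without NS replicate 1, 2 or 3 or MSC-EVs replicate 1 or 3 (adjusted p from 0.0715 to 0.223). It was also lost with the Y-linked covariate, a fit in which the group difference rests on MSC-EVs replicate 3.

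The others of the 8 were Abat (0.74, adjusted p = 5.74e-07), which breaks down GABA, Isl1 (0.65, adjusted p = 1.02e-06) and Sox2 (0.62, adjusted p = 9.56e-05), transcription factors of starburst cells, Pvalb (0.61, adjusted p = 0.000799), a calcium-binding protein, and Ebf3 (0.58, adjusted p = 5.44e-05), a transcription factor of amacrine cells. Isl1 is also in the bipolar list, and Müller glia express Sox2. Between the treated groups the median log2 fold change of the 31 genes was -0.08.

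Markers of other cell types moved with the same groups. In NS-treated rd10 against WT all 10 rod genes fell (median -1.91), 7 of 8 Müller glia genes rose (median 0.75) and all 8 microglia and macrophage genes rose (median 2.99). The 8 Müller glia genes summed to between 4822 and 5126 CPM in WT, 6887 and 8325 CPM in NS-treated and 6156 and 6379 CPM in MSC-EVs-treated libraries. Pax6 had the same order of groups, as did others, among them Megf10, Abat and Isl1. Among neurons of the inner retina, 5 of 10 bipolar genes rose and 1 fell (median 0.19), 2 of 4 horizontal genes rose (median 0.41) and 5 of 10 ganglion cell genes rose (median 0.30), beside the median of 0.23 of the 10 amacrine genes. Pigment epithelium genes rose in 3 of 7 cases, with a summed level of 54.07 to 210.5 CPM in NS-treated and 37.38 to 67.47 CPM in WT libraries, and in this comparison 1 of 8 cone genes rose and 3 fell. None of 5 lens genes was called by edgeR, nor had one an unadjusted p under 0.05. Every marker of these lists had counts in every library. The part of these cell types in the amacrine results was not tested.

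**Figure D5:**
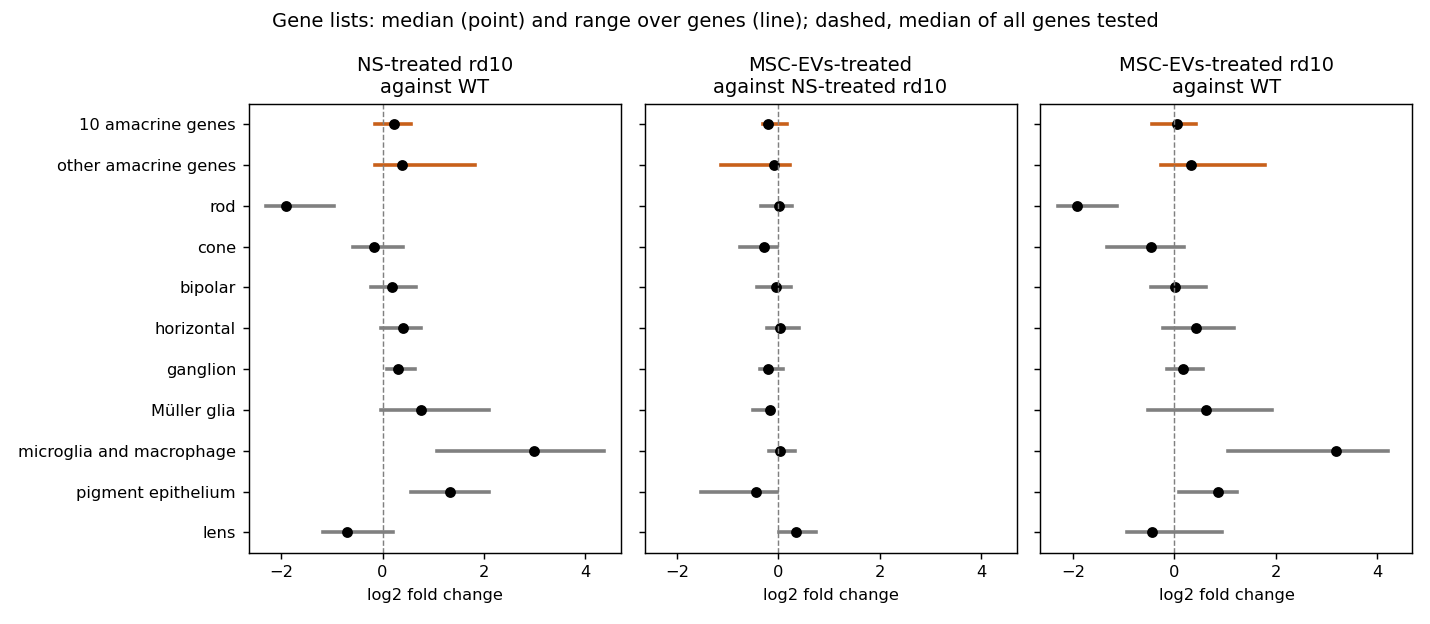
Median log2 fold change (points) and range over the genes tested (lines) of the 10 amacrine genes, the other amacrine genes and the marker lists of other cell types in the 3 comparisons, with the median of all genes tested dashed. In NS-treated rd10 against WT the amacrine median of 0.23 lies near those of bipolar (0.19) and ganglion cell genes (0.30), with rod genes at -1.91 and microglia and macrophage genes at 2.99.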

How the data were processed

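Whole-retina poly(A) RNA was sequenced in 9 libraries. Per the labels' processing notes the tools were fastp, Bowtie2, HISAT2, StringTie 1.3.1 and RSEM. The deposited table held, for 22337 genes, estimated counts per library (expected counts, with decimals for 9.16% to 11.7% of genes) and FPKM, both computed by the authors. The build and the annotation used by the authors are not given in the sources used here. Positions, overlaps and exons were taken from GENCODE M21 on GRCm38, and promoters from RefSeq.

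Estimated counts were rounded. For each pair of groups, the 6 libraries were filtered with filterByExpr, scaled with TMM and fitted with robust glmQLFit and glmQLFTest of edgeR 4.0.16 in R 4.3.3, with Benjamini-Hochberg adjustment over all genes tested. Group identity came from the labels. CPM in the text are scaled by TMM over all 9 libraries, and the SE is the log2 fold change divided by the square root of F. The study states no test for these counts. Alternatives were other scaling factors, other filters, DESeq2 1.42.0 (Wald test), limma 3.58.1 on log2(FPKM + 1) and log2(FPKM + 0.1) for genes with at least 0.1 FPKM in 3 libraries, 1 fit over all 9 libraries, a replicate block, a covariate of Y-linked expression and leaving out each library. The fitting code was tested on simulated data.

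The 10 genes, the other lists and the tests were chosen with earlier results of these data known. Named were all 10 genes and, of the 34 other amacrine genes, the 8 called genes with the largest absolute log2 fold change in NS-treated rd10 against WT, each gene called between the treated groups and each gene that failed the filter. Gjd2 was named after its values were seen. Of marker lists, counts, medians and summed levels are given. The horizontal marker Sept4 was matched to Septin4 by its gene identifier. Replicates differed by more than sampling noise in every group (chi-square divided by its degrees of freedom, 4.1 to 31.3), so none was counted as a duplicate.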

Additional observations from a re-analysis of the deposited data

How the results depend on the processing

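In NS-treated rd10 against WT, the 7 called genes of the 10 became 1 with inner-neuron markers held level, 4 with all 9 libraries in 1 fit (Gad2, Pax6, Slc32a1 and Tfap2a) and 0 with a limit of 1 on the log2 scale, and between 4 and 7 when a library was left out. The lowest count came without WT replicate 2 or 3 or NS replicate 1 or 3. Pax6, Slc32a1 and Tfap2a were called each time, with Gad2 as the other gene without WT replicate 2 or NS replicate 3, Slc18a3 without WT replicate 3 and Gad1 without NS replicate 1. The 20 other amacrine genes became 11 with inner-neuron markers held level and 3 with the limit. Signs turned with inner-neuron markers held level for Gad1 (-0.033), Chat (-0.072) and Calb2 (-0.030), and for Th with FPKM (0.027 with a pseudocount of 1, 0.032 with 0.1). Pax6 was called in each setting tried except the limit of 1.

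Between MSC-EVs-treated and NS-treated rd10, the 0 called genes of the 10 became 1, Pax6, with the DESeq2 Wald test and with all 9 libraries in 1 fit. Gad1 turned to 0.013 with the Y-linked covariate, a fit in which the group difference rests on MSC-EVs replicate 3. The 1 other amacrine gene became 0 with DESeq2 size factors, inner-neuron scaling, either FPKM scale, the Y-linked covariate or the limit of 1, 3 with the DESeq2 Wald test (Isl1, Megf10 and Slc6a13), 2 with all 9 libraries in 1 fit, and between 0 and 1 when a library was left out. Over all genes, the 172 called ran from 0, without NS replicate 3 or MSC-EVs replicate 1, to 1026 with all 9 libraries in 1 fit.

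Between MSC-EVs-treated rd10 and WT, the same 3 of the 10 genes were called without any single library and 0 with the limit of 1. The 19 other amacrine genes became 7 with inner-neuron scaling and 1 with the limit. Signs turned with inner-neuron scaling for Gad1 (-0.154), Slc18a3 (-0.141) and Tfap2a (-0.146), with FPKM for Slc6a9 (0.174 and 0.176) and Calb2 (0.109 and 0.1094), and with at least 10 counts in every library for Slc6a9 (0.0044). When a library was left out, Gad1 ran from -0.029 to 0.072, Tfap2a from -0.072 to 0.151, Slc18a3 from -0.044 to 0.14 and Slc6a9 from -0.096 to 0.053. The sign turned for Gad1, Tfap2a and Slc18a3 without MSC-EVs replicate 3, for Slc18a3 also without WT replicate 2, and for Slc6a9 without WT replicate 1 or MSC-EVs replicate 1 or 2.

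The main fits did not pair libraries by replicate number, and whether the numbers pair the samples was not settled. The paper states that rd10 littermates received MSC-EVs or saline, but ties no replicate number to a litter. If the numbers do pair littermates, the main fit between the treated groups left out that pairing. Deviations of same-numbered libraries correlated at -0.0781 to 0.0867 between WT and NS and 0.0312 to 0.0778 between WT and MSC-EVs. Different-numbered libraries correlated at -0.114 to 0.149 and -0.0629 to 0.0104 in these pairs of groups. Between NS and MSC-EVs all same-numbered values were positive (0.0866 to 0.28) and all different-numbered ones negative (-0.231 to -0.0112). With the replicate block, 5 of the 10 genes were called in NS-treated rd10 against WT (Gad1 and Calb2 did not pass), 0 between the treated groups and 3 in MSC-EVs-treated rd10 against WT. The other amacrine genes then numbered 20, 2 (Isl1 and Megf10) and 19, and the calls over all genes between the treated groups rose from 172 to 403. Depth limits Th most.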
